A study of Mus musculus with 19 samples.

Results

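Complement system genes were examined in mouse hepatocytes, the main metabolic and secretory cells of the liver. The set held 32 genes, chosen by name, and all 32 were found by their symbol among the 24537 genes of the deposited count table. By role they comprised 10 recognition molecules and early proteases, 7 central and alternative pathway components, 6 terminal components, 7 regulators and 2 receptors. Poly(A) RNA had been sequenced from hepatocytes of 10 young mice, 5 months of age, and 9 old mice, 24 months of age, with 1 library per mouse. All mice in both groups were male, wild type and C57BL/6J, an inbred strain, and the labels name no treatment. The mice were culled on 2 days, 23 days apart, with 5 young and 5 old mice on the first day and 5 young and 4 old mice on the second. The cells came from livers perfused in sequential steps. Mice are named below by the library numbers of the labels, and the tests rest on each number being a separate animal.

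Complement is a cascade of plasma proteases and binding proteins that marks particles for uptake, attracts leukocytes and makes pores in membranes. The classical pathway starts from antibodies or pentraxins through C1, the lectin pathway starts from sugars through collectins and ficolins, and the alternative pathway amplifies the cleavage of C3. The pathways meet at C3 and C5, after which C6 to C9 assemble into the membrane attack complex. Hepatocytes secrete much of the complement in plasma, and several of these genes belong to the acute phase response, in which the liver raises its output of defence proteins after injury or infection.

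The libraries held 17381439 to 20287628.5 counts over genes. The hepatocyte marker Alb ranged from 61168 to 157473 CPM (a count scaled to a common library total), so the label of the cells matched its defining marker. Per-mouse values below are CPM on library totals scaled by the trimmed mean of M-values (TMM). Saa2, an acute phase gene, set 3 young mice of the first cull day apart. It reached 6103 CPM of plain library totals in mouse 1184, 9663 in mouse 1186 and 3664 in mouse 1188, against 8.92 to 21.7 in the other 7 young mice and 17.7 to 556 in old mice. Age effects are therefore given with all 19 libraries and again without these 3 young libraries, and the 2 fits share 16 libraries. Leaving them out leaves 2 young mice on the first day. It also removes mice from the young group alone by the level of an acute phase gene, so tests without them are conditioned on that response and on the genes that move with it. Old mouse 1187 stood apart in macrophage markers, whose 14 genes summed to 3347 CPM there, where the other old mice had 68.4 to 821 CPM and young mice 106 to 524 CPM. In bulk RNA of this kind, more cells of a type and more RNA per cell cannot be told apart.

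With all 19 libraries, 10 of the 32 members were higher in old hepatocytes and 1 was lower at an adjusted p under 0.05. The higher members were the C1 proteases C1ra and C1s1, the lectin pathway molecules Mbl2 and Fcna, properdin (Cfp), the regulators Cfi, Serping1 and Cd55, and the anaphylatoxin receptors C3ar1 and C5ar1, and the lower member was C8b. The age effect of a gene is given as its log2 fold change, old over young. The largest fold difference among the members called was that of Cfp, at 4.08-fold, which did not pass without old mouse 1187. The smallest rise was that of C1ra, at 1.12-fold. The 11 members called were 34.4% of the set. Of all 12269 genes tested in edgeR's quasi-likelihood test with cull day as a covariate, 30.9% passed, 16.3% higher and 14.5% lower. The share of members called in either direction was close to that background, but by direction 10 of 32 members (31.3%) were higher and 1 of 32 lower. Without old mouse 1187, 5 of 32 (15.6%) were higher and 0 lower, where 24.5% of genes passed in either direction, so the larger share of higher members rested in part on that mouse. The median log2 fold change was 0.18 over the members and -0.0034 over all genes tested. All 32 members passed the filter on low counts. Markers of other liver cells were higher in old mice too, 13 of 14 for macrophages, 8 of 10 for endothelial cells and 10 of 10 for stellate cells. Of the 10 hepatocyte markers, 2 were higher and 3 lower, with a median log2 fold change of -0.21. Endothelial markers summed to 143 to 255 CPM in young and 151 to 508 CPM in old mice, and stellate markers to 32.7 to 91.1 CPM and 92.5 to 368 CPM, with mouse 1187 the highest in both. None of these markers was at 0 in all libraries, and their part in the members' counts was not tested.

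Without the 3 young mice of high Saa2, 15 of the 32 members (46.9%) were higher in old mice and 0 were lower, with 20 members at an unadjusted p under 0.05. Those 20, but not the 15, include C5ar1, which passed the filter in that fit through the old mice alone. The background in that fit was 27.2% of genes, 14.6% higher and 12.5% lower. Of the 11 calls above, 7 also passed here, namely C1s1, Mbl2, Fcna, Cfp, Cfi, Serping1 and Cd55. The 8 members that passed only here were Apcs, C2, C4a, C4b, Cfb, C8a, Vtn and Clu. C1ra, C3ar1 and C8b no longer passed, and C5ar1 is given in that fit with no test. The remaining 13 members passed in neither fit. In that fit 11 of 14 macrophage, 8 of 10 endothelial and 10 of 10 stellate markers were higher in old mice. Of the 10 hepatocyte markers, 1 was higher and 2 were lower. The median log2 fold change over members was 0.37, against -0.0082 over all genes tested.

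**Figure D1:**
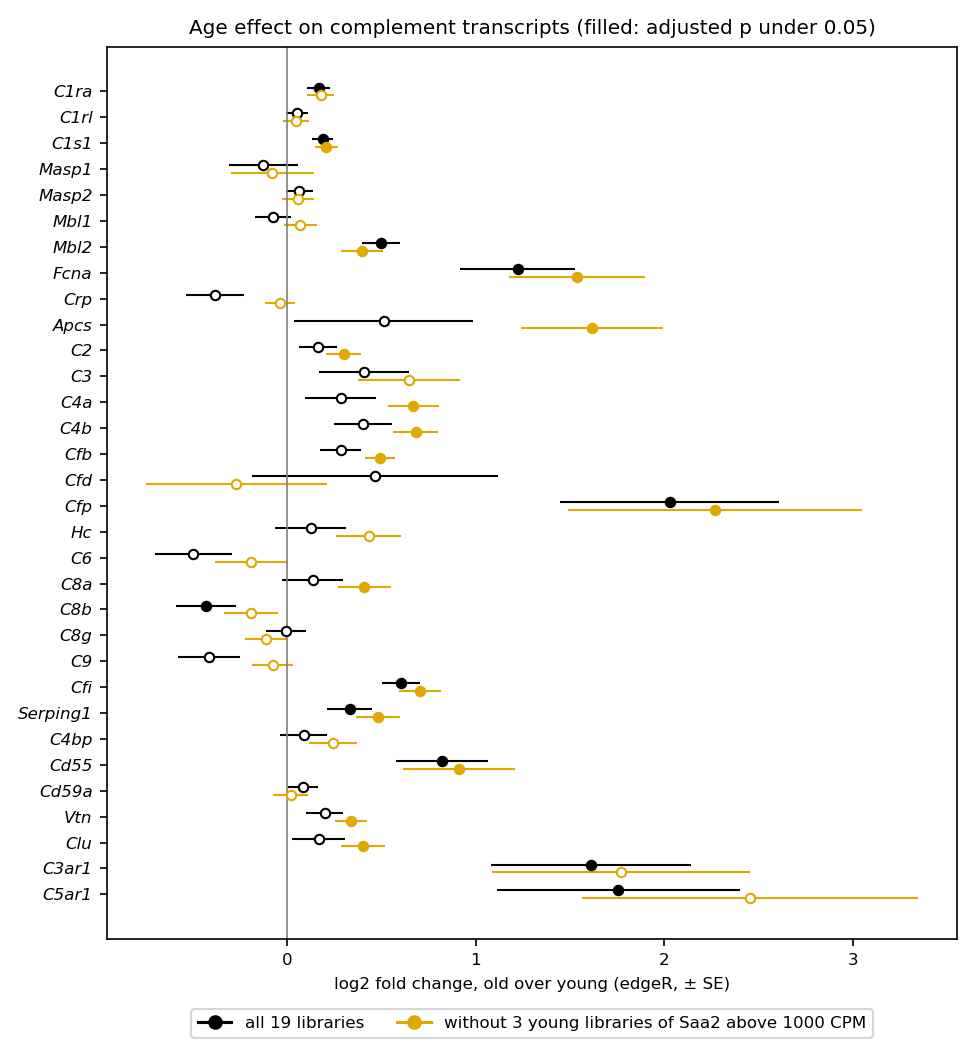
Log2 fold change of each member in old over young mice with its standard error (edgeR), with all 19 libraries in black and without the 3 young libraries of high Saa2 in yellow. Filled points passed the adjusted threshold. The yellow points of Apcs, C4a, C4b, Cfb and Clu lie to the right of the black ones, and the receptors and Cfp have the widest error bars.

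No member had all 9 old mice above all 10 young mice, as 0.978% of tested genes did. Against the other 7 young mice alone, all 9 old mice were higher for 2 members, Cfb and Cfi, and for 2.23% of tested genes. The 3 young mice of high Saa2 lay above the other 7 young mice for 18 of the 32 members and below them for 2, C8g and Cfd. The background for these orders was 9.47% of genes above and 11.1% below. The 18 members were Apcs, C2, C3, C4a, C4b, C4bp, C5ar1, C6, C8a, C8b, C9, Cfb, Cfi, Clu, Crp, Hc, Serping1 and Vtn. These 3 libraries were picked by a measured gene, so this order is a description with no test.

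**Figure D2:**
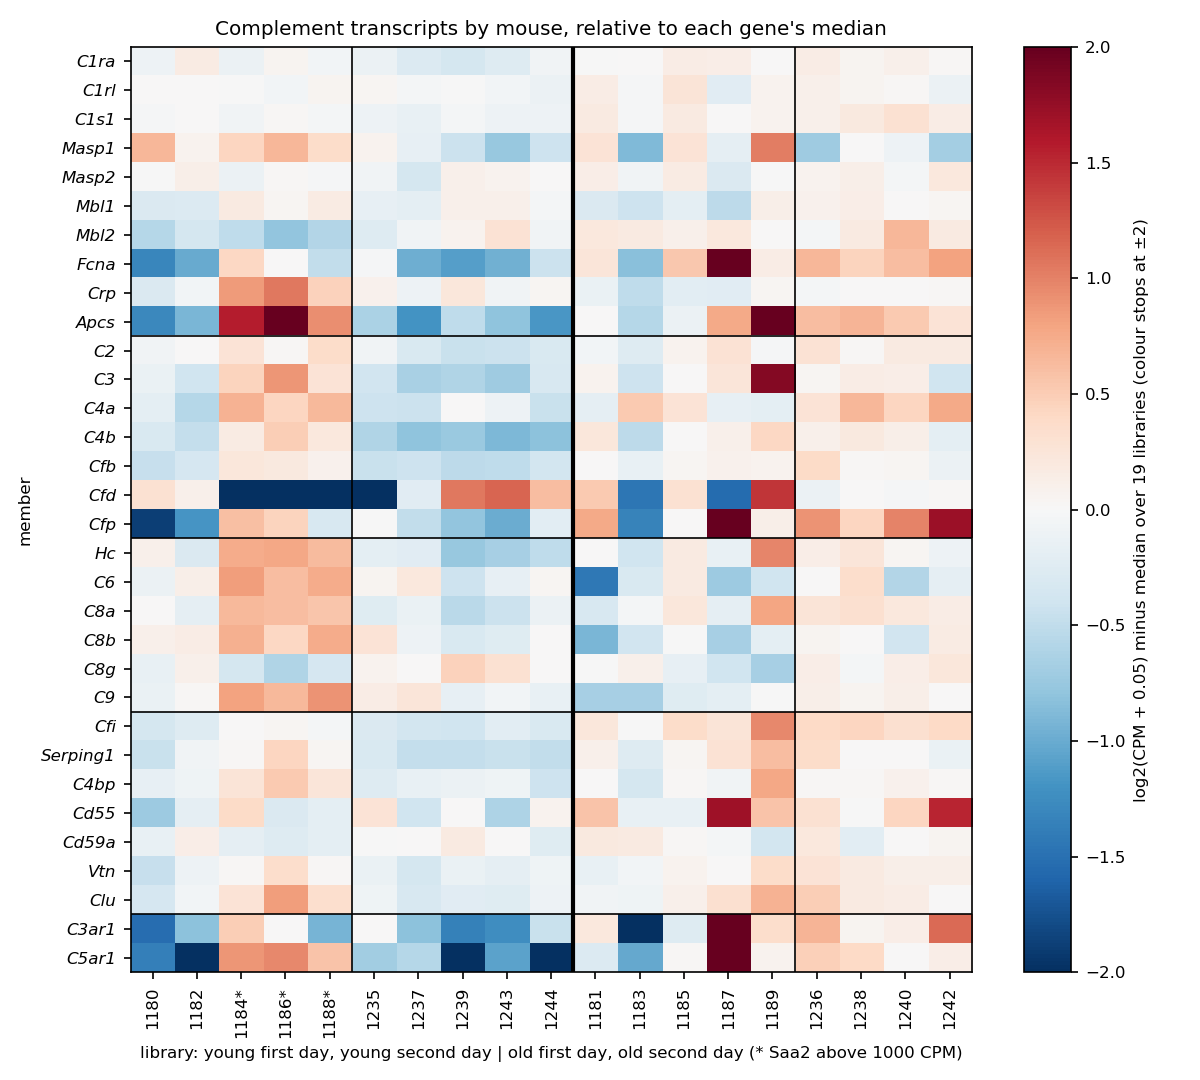
Each member (rows, ordered by role) in each mouse (columns) as log2(CPM + 0.05) minus that gene's median over 19 libraries, with the colour scale stopping at 2 on either side. Stars mark the 3 young mice of high Saa2. Apcs, C4a and the terminal components other than C8g are red in those 3 mice, and Fcna, Cfp, C3ar1 and C5ar1 are darkest in old mouse 1187.

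The cull days differed in what could be called. On the first day alone 2 of 32 members passed, Mbl2 higher and C8b lower, where 3.67% of genes passed. On the second day alone, which held none of the mice of high Saa2, 18 members passed, all higher, where 19.3% of genes passed. One of the 18, C5ar1, was at under 10 counts in every young library of that day, so it passed the filter through the old mice alone. The age by cull day interaction was past the threshold for 0 members and for 0% of all 12269 genes by edgeR. Unadjusted, p was under 0.05 for the interaction in 11 members, where 6.51% of genes did. The smallest adjusted p of a member was 0.623, for C2. With the 3 young mice of high Saa2 left out, 1 member had an unadjusted p under 0.05, where 2.42% of genes did. Whether the age effect on the members differs between days was therefore not shown at the adjusted threshold.

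Single old mice also moved the count. Without old mouse 1187, 5 members (15.6%) passed, C1s1, Mbl2, Fcna, Cfi and Cd55, all higher, where 24.5% of genes passed in either direction. Without both 1187 and 1189, 4 members passed, where 24.2% of genes did. When the mice of high Saa2 were left out as well, the count was 18 without 1187 and 17 without 1189, where 28.3% and 28.8% of genes passed. In that last pair of fits every member called was higher in old mice, and both counts include C5ar1, which passed the filter there through the old mice alone.

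Levels of the members spanned a wide range when put per length, on plain library totals without TMM scaling. In CPM per kilobase of transcript, the highest median was that of Vtn at 1777, followed by C3 at 1468, Clu at 903, Cfb at 598, Serping1 at 458, Cfi at 446 and Mbl2 at 415. Vtn encodes vitronectin, which blocks membrane attack, and Clu encodes clusterin, which does the same. The lowest levels were those of C3ar1 at 0.358 and C5ar1 at 0.264, both receptors typical of myeloid cells. Every pair of neighbours in this order had overlapping ranges over the 19 mice. Together the members took 1.79% to 4.87% of all counts over genes, with a median of 2.10% in young mice and 2.77% in old mice.

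**Figure D3:**
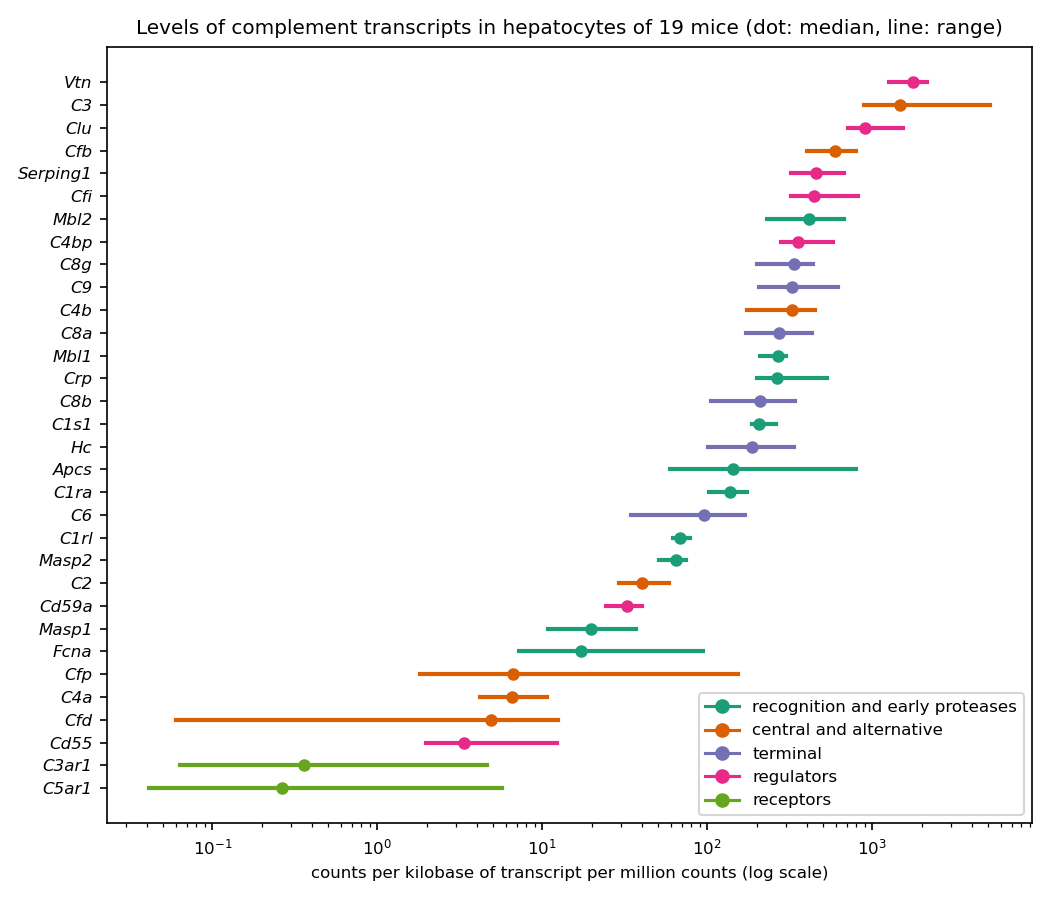
Median (dot) and range (line) of each member over 19 mice in CPM of plain library totals per kilobase of transcript, on a log axis, coloured by role. Vtn and C3 lead and the 2 receptors come last, and the longest lines are those of Cfd, Cfp, C3ar1 and C5ar1.

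Mouse-to-mouse spread differed between members. Within age and cull day, the SD of log2 CPM was 0.067 for C1s1, the lowest of the 32. It was 1.76 for Cfd, 1.35 for C5ar1, 1.26 for Cfp, 1.21 for C3ar1 and 1.05 for Apcs, the 5 highest. The median SD over all tested genes was 0.239. These SDs take in the young mice of high Saa2, which lay apart from the other young mice of their day for Cfd and Apcs. They also take in old mouse 1187, which was far above the other mice for Cfp, C3ar1 and C5ar1.

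Among the recognition molecules and early proteases, 4 of 10 were higher in old mice with all libraries, as were 16.3% of all genes tested. C1s1, the C1s protease that cleaves C4 and C2 (chr6:124530344-124542321, minus strand, mm10), was present at 549.5 to 620.0 CPM (median 588) in young mice and 599 to 753 CPM (median 679) in old mice. Of the old mice, 7 of 9 lay above every young mouse. Old over young, the log2 fold change was 0.19 (SE 0.054, edgeR adjusted p = 0.0142) with all libraries and 0.21 (SE 0.062, edgeR adjusted p = 0.0236) without the mice of high Saa2. It passed in all 19 fits that each left out one mouse. C1ra, the C1r protease that activates C1s (chr6:124512621-124523440, plus strand), ranged over 297 to 427 CPM (median 354) in young and 378 to 421 CPM (median 394) in old mice. The groups overlapped, and 0 old mice lay above the highest young mouse, 1182. The log2 fold change of C1ra was 0.17 (SE 0.062, edgeR adjusted p = 0.0461), and 0.18 (SE 0.072, edgeR adjusted p = 0.0732) without the mice of high Saa2, where it did not pass. It passed in 6 of 19 fits that each left out one mouse, those without 1181, 1183, 1189, 1182, 1186 or 1244, and its adjusted p over the 19 fits ran from 0.0203 to 0.0898.

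C1ra and C1s1 lie tail to tail on chromosome 6, with 6904 bases from end to end, and C1rl, a related protease, ends 1978 bases before C1ra. C1ra shares 34.5% of its 100-base windows with its copy C1rb, and C1s1 shares 7.9% with C1s2, so how reads were split between copies is uncertain. The copy C1rb was at 54.8 to 74.5 CPM (median 67.9) in young and 48.7 to 70.5 CPM (median 62.3) in old mice and its age effect of -0.069 (SE 0.071, edgeR adjusted p = 0.483) did not pass, nor did that of -0.039 (edgeR adjusted p = 0.769) without the mice of high Saa2. C1s2 was at 0.165 to 0.802 CPM over all mice and did not pass either (edgeR adjusted p = 0.15, and 0.427 without those mice).

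Mbl2 encodes mannose-binding lectin C, a plasma collectin that binds microbial sugars and starts the lectin pathway. Young mice held 257 to 541 CPM (median 359) and old mice 432 to 705 CPM (median 503). Young mice of high Saa2 were at the low end, at 257 to 314 CPM, and 1 old mouse, 1240, lay above the highest young mouse. In edgeR the age effect came to 0.50 (SE 0.10, edgeR adjusted p = 0.00199), or 1.41-fold, and 0.40 (SE 0.11, edgeR adjusted p = 0.0191) without the mice of high Saa2. It was 0.70 on the first cull day (edgeR adjusted p = 0.0162) and 0.27 on the second (edgeR adjusted p = 0.208). Mbl1, its paralog encoding mannose-binding lectin A, did not pass, at 199 to 276 CPM (median 242) in young and 168 to 265 CPM (median 242) in old mice (log2 fold change -0.075, edgeR adjusted p = 0.571), and had 0.07 (edgeR adjusted p = 0.58) without the mice of high Saa2. The 2 genes share no 100-base window.

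Fcna encodes ficolin A, a lectin pathway recognition molecule made by macrophages as well as liver. It ranged over 9.40 to 30.9 CPM (median 14.2) in young mice and 13.0 to 106 CPM (median 33.8) in old mice, and 6 of 9 old mice lay above every young mouse. Mouse 1187 had the highest value and the next old mouse 40.6 CPM. The age effect was 1.22 (SE 0.31, edgeR adjusted p = 0.00672), 0.86 (edgeR adjusted p = 0.0128) without mouse 1187 and 1.54 (SE 0.36, edgeR adjusted p = 0.00739) without the mice of high Saa2. Macrophage markers moved in the same direction, with 13 of 14 higher in old mice with all libraries and 2 of 14 without mouse 1187. The count was 11 of 14 without the mice of high Saa2, and 13 of 14 when 1187 was left out as well. None of those markers was at 0, and Clec4f, a defining Kupffer cell marker, was at 17.8 to 79.5 CPM (median 29.8) in young and 9.43 to 441 CPM (median 56.0) in old mice. Their part in the rise of Fcna was not tested.

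Apcs encodes serum amyloid P component, the pentraxin that is a major acute phase protein of the mouse. It separated the mice of high Saa2 from the other young mice. Those 3 young mice were at 423, 825 and 271 CPM, the other 7 young mice at 58.6 to 101 CPM (median 75.9) and old mice at 96.0 to 763 CPM (median 204). Of the old mice, 8 of 9 lay above the highest of those 7 young mice, and the highest old mouse, 1189, stood at 763 CPM with the next at 241. With all libraries the log2 fold change was 0.51 (SE 0.47, edgeR adjusted p = 0.433), which did not pass. Without the 3 young mice it was 1.62 (SE 0.38, edgeR adjusted p = 0.00707), or 3.07-fold. It was 1.30 (edgeR adjusted p = 0.000334) when mouse 1189 was left out as well.

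The promoters of Mbl2, which had the smallest p of the recognition molecules with all libraries, and of Apcs are shown. That of Saa2, the gene that set the 3 young mice apart, is shown with them. Each runs from 250 bases before the RefSeq transcript start to 50 after it, 5′ to 3′ on the gene's strand, on GRCm38.p6 (RefSeq). The regions are chr19:30232678-30232977 (plus strand), chr1:172895005-172895304 (minus strand) and chr7:46751583-46751882 (plus strand). The RefSeq start of Mbl2 lies 29 bases from the start in the deposited table. Capitals mark a match on either strand to TTCNNNGAA, the letters bound by STAT factors, or to TTGCNNAA, the letters bound by C/EBP factors.
Mbl2: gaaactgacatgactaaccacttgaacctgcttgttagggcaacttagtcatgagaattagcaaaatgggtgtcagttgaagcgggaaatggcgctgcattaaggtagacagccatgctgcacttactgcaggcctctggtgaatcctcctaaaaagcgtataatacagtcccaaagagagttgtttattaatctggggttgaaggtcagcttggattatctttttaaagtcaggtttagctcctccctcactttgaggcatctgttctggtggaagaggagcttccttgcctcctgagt
Apcs: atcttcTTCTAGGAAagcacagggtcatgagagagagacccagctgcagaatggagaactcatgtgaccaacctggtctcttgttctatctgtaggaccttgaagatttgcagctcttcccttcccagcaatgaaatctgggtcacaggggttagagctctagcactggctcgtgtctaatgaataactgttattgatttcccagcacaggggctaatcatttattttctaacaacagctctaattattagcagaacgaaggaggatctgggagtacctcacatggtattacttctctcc
Saa2: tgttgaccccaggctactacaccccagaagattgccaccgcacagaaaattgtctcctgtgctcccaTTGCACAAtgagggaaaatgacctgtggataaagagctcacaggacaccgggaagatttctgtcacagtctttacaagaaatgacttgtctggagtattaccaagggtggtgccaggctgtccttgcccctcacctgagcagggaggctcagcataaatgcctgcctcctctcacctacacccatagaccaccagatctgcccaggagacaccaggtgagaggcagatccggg
The Apcs promoter held 1 STAT match, TTCTAGGAA at -244, and the Saa2 promoter held 1 C/EBP match, TTGCACAA at -183, both counted from 0 at the transcript start. Mbl2 held neither. Of all 32851 promoters of this length in the table, 8.30% held the STAT letters and 10.8% the C/EBP letters. Of the 24 members with a promoter in the table, 5 held the STAT letters (C8a, Apcs, C1ra, Masp2 and Vtn) and 4 the C/EBP letters (C1ra, C1rl, C3 and C9). GGGNNTTTC, the letters of NF-kB, was in 1 member (C3ar1) and 4.36% of promoters, GAAANNGAA, those of an interferon response element, in 4 members (Cd59a, Crp, Vtn and C5ar1) and 8.56%, and TTAATNATT, those of HNF1, in 2 members (Hc and C4bp) and 1.47%. A match of letters is not a measured binding site. C2, C4a, C4b, Cfb, Cfi, Masp1, Serping1 and Clu had no promoter in the table, so they were not searched.

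The other 5 recognition molecules and proteases passed in neither fit. Crp, C-reactive protein, was at 374 to 946 CPM (median 477) in young and 322 to 473 CPM (median 446) in old mice, and its 3 highest values were those of the mice of high Saa2, at 631 to 946 CPM. Old over young, the log2 fold change was -0.38 with all libraries (edgeR adjusted p = 0.0651) and -0.038 without them (edgeR adjusted p = 0.754). C1rl and Masp2 had log2 fold changes of 0.052 and 0.063 with all libraries, and 0.049 and 0.057 without the mice of high Saa2. Masp2, the protease of the lectin pathway, overlaps Tardbp on the opposite strand, and the strand setting of the counting is not given in the sources used here, so its value is uncertain. Masp1 was at 31.3 to 83.5 CPM (median 55.1) in young and 28.6 to 108 CPM (median 49.4) in old mice, with a log2 fold change of -0.13 (edgeR adjusted p = 0.63), and -0.078 (edgeR adjusted p = 0.823) without those mice.

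Of the 7 central and alternative pathway components, only Cfp passed with all libraries, and 5 passed without the mice of high Saa2. The shares of all genes tested were 30.9% and 27.2% in the same order. Cfb encodes factor B, the catalytic chain of the alternative pathway convertase (chr17:34856374-34862514, minus strand). The 3 young mice of high Saa2 had 1748 to 1939 CPM, the other 7 young mice 1151 to 1306 CPM (median 1213) and old mice 1494 to 2167 CPM (median 1692). All 9 old mice lay above those 7 young mice, and 1 old mouse, 1236, lay above all 10. In edgeR the age effect came to 0.28 (SE 0.11, edgeR adjusted p = 0.0523) with all libraries, just outside the threshold, and 0.49 (SE 0.078, edgeR adjusted p = 0.000801) without the 3 young mice, or 1.41-fold. Leaving out any one of 1183, 1184, 1186 or 1188 from all 19 libraries brought Cfb under the threshold, at an adjusted p from 0.023 in edgeR.

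C4b encodes the C4 protein, cleaved by C1s and MASP-2 to form the classical and lectin convertase with C2. It stood at 2033 to 2534 CPM in the 3 young mice of high Saa2, 975 to 1463 CPM (median 1083) in the other young mice and 1262 to 2419 CPM (median 1930.1) in old mice. Mice of high Saa2 and old mice overlapped, and 8 of 9 old mice lay above the other 7 young mice. The age effect was 0.40 (SE 0.15, edgeR adjusted p = 0.0547) with all libraries, which did not pass, and 0.68 (SE 0.12, edgeR adjusted p = 0.00151) without the 3 young mice. C4a, the second C4 gene of the mouse (also called Slp), was far lower per length, at 6.58 CPM per kilobase (plain library totals) against 324 for C4b. It was at 22.9 to 33.9 CPM (median 25.4) in the other 7 young mice, 45.6 to 54.7 CPM in the 3 of high Saa2 and 29.5 to 57.5 CPM (median 41.2) in old mice. The log2 fold change of C4a was 0.28 with all libraries (edgeR adjusted p = 0.262) and 0.67 (SE 0.13, edgeR adjusted p = 0.00288) without the 3 young mice. C4a shares 16.5% of its 100-base windows with C4b, which leaves the split of reads between them uncertain.

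C2, the protease chain of that convertase, lies 88 bases upstream of Cfb on the same strand of chromosome 17. It was at 79.9 to 108 CPM (median 87.8) in the other 7 young mice, 110.1 to 139 CPM in those of high Saa2 and 90.1 to 132 CPM (median 114) in old mice, so the old mice overlapped both sets of young mice. Old over young, the log2 fold change was 0.16 with all libraries (edgeR adjusted p = 0.232) and 0.30 (SE 0.095, edgeR adjusted p = 0.0301) without the mice of high Saa2.

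C3, the protein at which the pathways meet, did not pass in either fit. It was at 4771 to 7115 CPM (median 5912) in the other 7 young mice, 9459 to 14391 CPM in the 3 of high Saa2 and 5852 to 27870.0 CPM (median 8161) in old mice. Old mouse 1189 alone was at 27870.0 CPM, and the next old mouse, 1187, at 9204. In edgeR the age effect came to 0.41 (SE 0.24, edgeR adjusted p = 0.198) with all libraries and 0.65 (SE 0.27, edgeR adjusted p = 0.0846) without the mice of high Saa2. When 1189 was left out as well it was 0.42 (edgeR adjusted p = 0.0177), with 8 old and 7 young mice. C3 took 2.63% of all counts over genes in mouse 1189 and 0.455% to 1.37% in the other libraries.

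**Figure D4:**
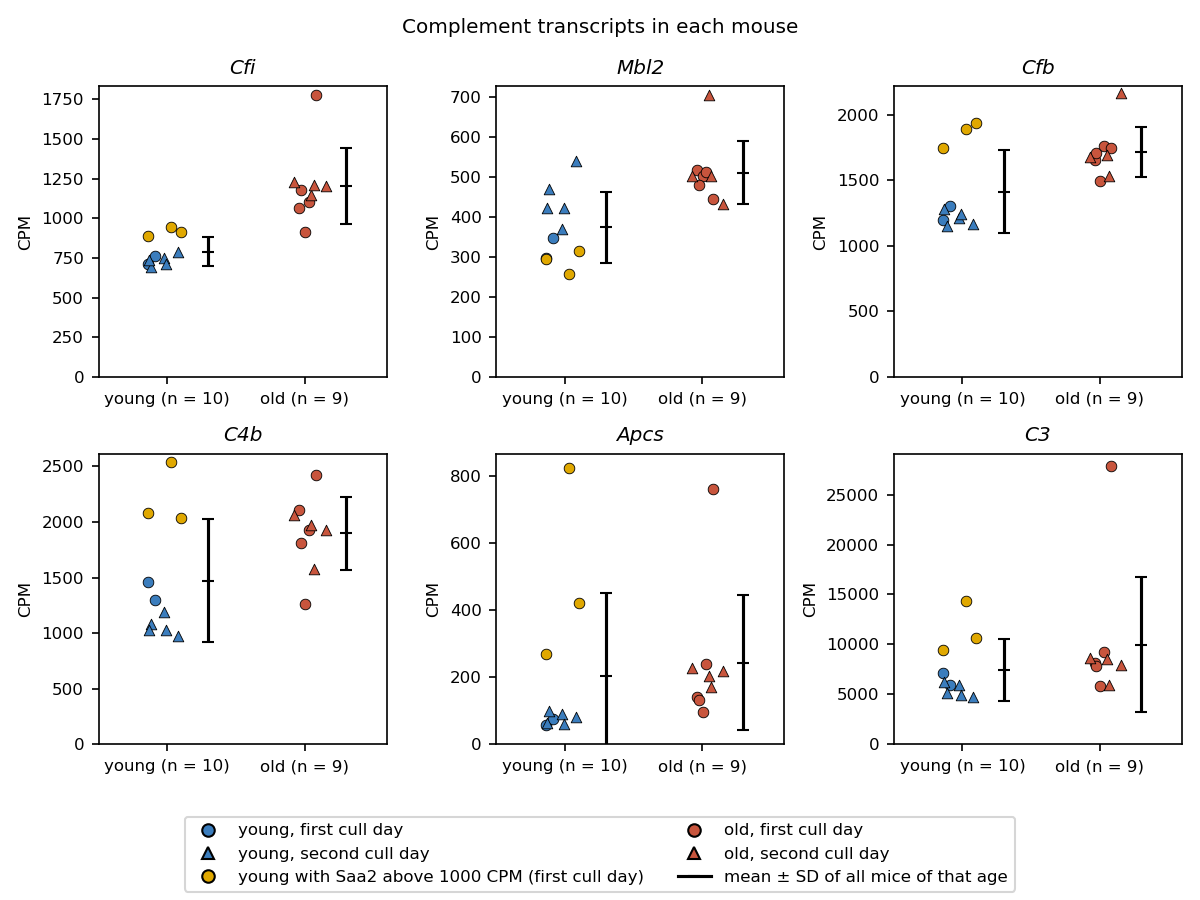
CPM of 6 members in each mouse, with the mean and SD of all mice of that age beside the points (the lower end of the young bar of Apcs falls below 0 and is not drawn). Yellow points are the 3 young mice of high Saa2, which overlap the old mice for Cfb and C4b. For Apcs and C3, the range of the old mice reaches the yellow points only through mouse 1189. For Cfi the yellow points lie above the other young mice, and 2 of the 3 lie above the lowest old mouse, 1183. One old mouse, 1189, is highest for Cfi and C3.

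Cfp, properdin, stabilises the alternative pathway convertase and is made mainly by leukocytes. It was at 2.95 to 16.6 CPM (median 8.25) in young mice and 4.31 to 216 CPM (median 18.5) in old mice, and 5 of 9 old mice lay above every young mouse. Mouse 1187 was 6.01 times the next highest mouse, 1242, which was at 35.8 CPM. The age effect was 2.03 (SE 0.58, edgeR adjusted p = 0.014), and 0.91 (edgeR adjusted p = 0.055) without mouse 1187, where it did not pass. Without the mice of high Saa2 it was 2.27 (SE 0.78, edgeR adjusted p = 0.0413), and 1.54 (edgeR adjusted p = 0.000668) with 1187 left out too. Macrophage markers moved with it as described for Fcna, and their part was not tested. Cfd, the factor D protease known as adipsin and typical of fat cells, passed in neither fit. It was at 0.0547 to 0.223 CPM in the mice of high Saa2, which held 1 to 4 counts each, at 0.584 to 10.1 CPM (median 5.50) in the other young mice and at 1.51 to 12.1 CPM (median 4.45) in old mice. Of the 7 adipocyte markers listed, the defining marker Adipoq stood at 0.0981 CPM or less in every library, and 3 passed the filter on low counts. Of those, Cidec was at 1.00 to 1.45 CPM in the mice of high Saa2, 1.69 to 13.5 CPM (median 4.95) in the other young mice and 5.56 to 35.4 CPM (median 11.5) in old mice, and Car3 at 678 to 1398 CPM, 2566 to 3706 CPM (median 3566) and 902 to 2964 CPM (median 1943), so both, like Cfd, were lower in the mice of high Saa2 than in the other young mice. Adrb3, the third, was at 1.32 to 2.29 CPM in the mice of high Saa2 and 1.72 to 4.16 CPM in the other young mice, so these overlapped. In old mice it was at 0.834 to 8.18 CPM. All 7 summed to 681 to 1400.5 CPM in the mice of high Saa2, 2574 to 3711 CPM in the other young mice and 938 to 2998 CPM in old mice. Nearly all of each sum was Car3, so the sum adds little to that gene. With all libraries 1 of the 3, Cidec, was higher in old mice and 0 lower. Without the mice of high Saa2, 0 were higher and 1, Car3, was lower. The part of these markers in the values of Cfd was not tested.

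The terminal components had 1 call in each fit, of opposite sign and of different genes, where 30.9% and 27.2% of all genes tested passed. C8b encodes the beta chain of C8, which joins the growing membrane attack complex. Its values were 365 to 754 CPM (median 491) in young mice and 239 to 503 CPM (median 394) in old mice. The 3 mice of high Saa2 were the highest of all, at 603 to 754 CPM, and the other 7 young mice, at 365 to 547 CPM, overlapped the old mice. Old over young, the log2 fold change was -0.43 (SE 0.16, edgeR adjusted p = 0.0469), and -0.19 (SE 0.14, edgeR adjusted p = 0.329) without the 3 mice, where it did not pass. It was -0.84 (edgeR adjusted p = 0.0481) on the first cull day and 0.03 (edgeR adjusted p = 0.908) on the second. Among fits that each left out one mouse, 6 of 19 kept the call, those without 1236, 1238, 1242, 1237, 1239 or 1243, and the adjusted p ran from 0.0312 to 0.088 in edgeR.

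C8a encodes the alpha chain, which carries the pore-forming part of C8. It was at 651 to 951 CPM (median 843) in the other 7 young mice, 1400.2 to 1489 CPM in the 3 of high Saa2 and 763 to 1644 CPM (median 1098) in old mice, of which 6 of 9 lay above those 7. Mouse 1189 was the highest of all 19, and without it the old mice ended at 1191 CPM, below the mice of high Saa2. In edgeR the age effect came to 0.14 with all libraries (edgeR adjusted p = 0.547) and 0.41 (SE 0.14, edgeR adjusted p = 0.0406) without the 3 young mice.

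C8a and C8b lie tail to tail on chromosome 4, with 11132 bases from end to end. Their promoters are shown because the 2 chains, which join in one complex, had age effects of opposite sign with all libraries, of which that of C8a did not pass. The regions are chr4:104876349-104876648 (minus strand) and chr4:104766067-104766366 (plus strand), on GRCm38.p6 (RefSeq), with the same limits and the same letters in capitals as above.
C8a: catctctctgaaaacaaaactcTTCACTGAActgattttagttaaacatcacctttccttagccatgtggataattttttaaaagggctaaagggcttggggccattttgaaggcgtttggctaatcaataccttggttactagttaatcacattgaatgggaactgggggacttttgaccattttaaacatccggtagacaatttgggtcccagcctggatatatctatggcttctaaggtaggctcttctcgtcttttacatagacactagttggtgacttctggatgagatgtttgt
C8b: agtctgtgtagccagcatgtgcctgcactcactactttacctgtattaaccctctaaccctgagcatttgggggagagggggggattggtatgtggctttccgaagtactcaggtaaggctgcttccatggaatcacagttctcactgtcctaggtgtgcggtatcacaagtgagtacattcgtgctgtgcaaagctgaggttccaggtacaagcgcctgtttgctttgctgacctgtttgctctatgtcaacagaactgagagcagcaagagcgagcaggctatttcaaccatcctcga
The C8a promoter held 1 STAT match, TTCACTGAA at -228 from the start, and the C8b promoter held no match to any of the 5 motifs.

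Ratios between pairs of members were computed per mouse, 4 in all. The pairs were chosen after their values were seen, so the ratios are a description with no test. The ratio of C8a to C8b in levels per kilobase was 1.17 ± 0.154 (SD, n = 10) when young and 1.76 ± 0.371 (SD, n = 9) when old. Of the old mice, 8 of 9 lay above every young mouse. The difference was 0.57 on the log2 scale. It was 0.63 on the first cull day, 0.50 on the second and 0.61 without the mice of high Saa2. Those 3 mice were at 1.14 to 1.49, and mouse 1186 alone lay above the other 7 young mice, at 0.901 to 1.27.

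The ratio of Mbl2 to Mbl1 was 1.37 ± 0.331 (SD, n = 10) when young and 2.01 ± 0.459 (SD, n = 9) when old. Its difference was 0.57 on the log2 scale and 0.35 without the mice of high Saa2. Those 3 mice had the lowest ratios of all, at 0.892 to 0.983, and 5 of 9 old mice lay above every young mouse. On the first cull day the difference was 0.94 and on the second 0.15. The log2 difference between ages was -0.14 for the ratio of C8g to C8a and 0.017 for that of C1s1 to C1ra.

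**Figure D5:**
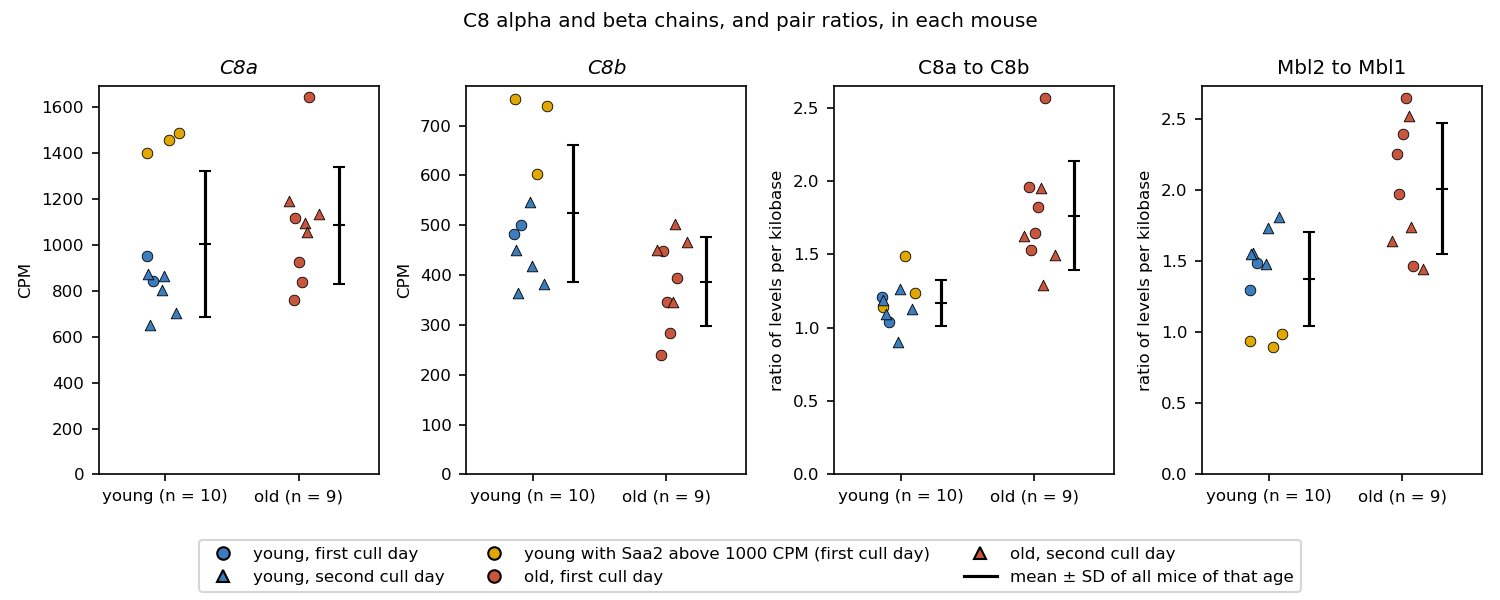
CPM of C8a and C8b in each mouse (left panels) and the ratios of C8a to C8b and of Mbl2 to Mbl1 in levels per kilobase (right panels), with mean and SD by age. For C8a to C8b, 8 of 9 old mice lie above all young mice, and 2 of the 3 yellow points of high Saa2 sit among the other young mice, with the third, 1186, above them. For Mbl2 to Mbl1 the yellow points are the lowest.

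The other 4 terminal components passed in neither fit. C9, which forms the ring of the pore, was at 522 to 1085 CPM (median 619) in young mice and 367 to 634 CPM (median 577) in old mice, and C6 was at 199 to 474 CPM (median 283) and 99.2 to 342 CPM (median 215). In both, the 3 mice of high Saa2 were the highest of all 19. The log2 fold changes with all libraries were -0.41 (edgeR adjusted p = 0.0625) for C9 and -0.50 (edgeR adjusted p = 0.0708) for C6, and without those mice -0.078 (edgeR adjusted p = 0.627) and -0.19 (edgeR adjusted p = 0.481). Hc, the mouse gene of C5, had 0.12 (edgeR adjusted p = 0.642) and 0.43 (edgeR adjusted p = 0.0699) in the same order. C8g, the gamma chain of C8, was lowest among young mice in the 3 mice of high Saa2, at 227 to 274 CPM against 312 to 476 CPM in the other young mice. The age effect was -0.0067 (edgeR adjusted p = 0.968) with all libraries and -0.11 (edgeR adjusted p = 0.463) without those mice.

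Of the 7 regulators, 3 were higher with all libraries and 5 without the mice of high Saa2, and 0 were lower in either. Of all genes tested, 16.3% and 14.6% were higher in the same order. Cfi encodes factor I, the protease that cleaves C3b and C4b (chr3:129836739-129875332, plus strand). It had the smallest p of all members. Young mice were at 693 to 942 CPM (median 756), with those of high Saa2 at 889 to 942 CPM, and old mice at 911 to 1779 CPM (median 1176). In all, 8 of 9 old mice lay above every young mouse, and the ninth, 1183, stood at 911 CPM, above the other 7 young mice. Old over young, the log2 fold change was 0.60 (SE 0.10, edgeR adjusted p = 0.000384), or 1.52-fold, and 0.70 (SE 0.11, edgeR adjusted p = 0.000801) without the mice of high Saa2. It passed in all 19 fits that each left out one mouse, with an adjusted p of at most 0.00108 in edgeR, and without mouse 1189 it was 0.52. On the first cull day alone the value was 0.51 (edgeR adjusted p = 0.115) and on the second 0.71 (edgeR adjusted p = 0.000338).

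Serping1 encodes the C1 inhibitor, which blocks C1r, C1s and the MASP proteases. It was at 599 to 1134 CPM (median 651) in young and 708 to 1296 CPM (median 863) in old mice, with the 3 mice of high Saa2 at 856 to 1134 CPM overlapping the old mice. In edgeR the age effect came to 0.33 (SE 0.12, edgeR adjusted p = 0.0399), and 0.48 (SE 0.12, edgeR adjusted p = 0.00852) without those mice. Leaving out one mouse kept the call in 8 of 19 fits, those without 1181, 1183, 1185, 1238, 1242, 1184, 1186 or 1188, and the adjusted p ran up to 0.0885 in edgeR.

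Cd55, the decay-accelerating factor that breaks up convertases on cell surfaces, was at 4.98 to 10.7 CPM (median 7.23) in young mice and 7.43 to 26.9 CPM (median 11.1) in old mice. Of 9 old mice, 5 lay above every young mouse, with 1187 and 1242 the highest. The age effect was 0.82 (SE 0.24, edgeR adjusted p = 0.0165), 0.60 (edgeR adjusted p = 0.0374) without mouse 1187 and 0.91 (SE 0.30, edgeR adjusted p = 0.0334) without the mice of high Saa2. Without mouse 1187, which was highest for the summed macrophage, endothelial and stellate markers, 2 of 14, 7 of 10 and 8 of 10 of them were higher in old mice, and their part in the rise of Cd55 was not tested. Its copy Cd55b held at most 3 counts in any library. Vtn was at 2209.9 to 2858 CPM (median 2766) in the other 7 young mice, 3071 to 3891 CPM in the 3 of high Saa2 and 2724 to 3922 CPM (median 3283) in old mice. Old over young, the log2 fold change was 0.20 with all libraries (edgeR adjusted p = 0.125) and 0.34 (SE 0.087, edgeR adjusted p = 0.0116) without the 3 mice. Clu followed the same order, at 1293 to 1567 CPM (median 1390.2), 1971 to 2903 CPM and 1534 to 2624 CPM (median 1793). In edgeR the age effect came to 0.17 with all libraries (edgeR adjusted p = 0.389) and 0.40 (SE 0.12, edgeR adjusted p = 0.0201) without them. C4bp, the C4b-binding protein, and Cd59a, which blocks C9, passed in neither fit, with log2 fold changes of 0.087 and 0.083 with all libraries, and 0.24 and 0.019 without the mice of high Saa2. Cd59b, the copy of Cd59a, was at 2.66 CPM or less in every mouse.

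Both anaphylatoxin receptors were low and higher in old mice. C3ar1, the receptor of C3a, was at 0.527 to 2.30 CPM (median 0.896) in young mice and 0.26 to 17.3 CPM (median 1.87) in old mice, which is 10 to 42 counts per young library and 5 to 395.5 per old library. C5ar1, the receptor of C5a, was at 0.11 to 1.39 CPM (median 0.354) in young mice and 0.312 to 12.5 CPM (median 0.73) in old mice, or 2 to 25 counts and 6 to 286.5 counts. Mouse 1187 held the highest value of each, and the next old mouse was at 3.59 CPM for C3ar1 and 0.978 for C5ar1. The log2 fold changes were 1.61 (SE 0.53, edgeR adjusted p = 0.0275) for C3ar1 and 1.76 (SE 0.64, edgeR adjusted p = 0.0445) for C5ar1. Without mouse 1187 they were 0.73 (edgeR adjusted p = 0.128) and 0.46 (edgeR adjusted p = 0.469). Without the mice of high Saa2 they were 1.77 (edgeR adjusted p = 0.0645) and 2.46, and with 1187 left out too 1.16 (edgeR adjusted p = 0.0173) and 1.63. In those fits C5ar1 held 2 to 8 counts in the 7 young libraries and passed the filter, of about 10 counts, through the old mice alone, so its values there are given with no test. The call of C3ar1 was also lost when 1242, 1180 or 1188 was left out, and that of C5ar1 was kept in 6 of 19 such fits, those without 1181, 1183, 1185, 1189, 1184 or 1186. Both receptors are typical of macrophages and neutrophils. Csf3r, a defining neutrophil marker, was at 0.0981 to 1.45 CPM (median 0.399) in young mice and 0.104 to 8.45 CPM (median 1.13) in old mice, and the part of either cell type was not tested.

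Mouse 1189 was the highest of all 19 mice for 9 of the 32 members, C3, C4bp, C8a, Cfd, Cfi, Hc, Masp1, Serping1 and Vtn, and for 5.53% of tested genes. Its Saa2, at 60.0 CPM of plain library totals, lay within the range of the other old mice, but other acute phase genes were high in it. Of the 27 acute phase genes listed, 11 were highest among old mice in 1189 and 3 of them highest of all 19. Their sum there was 88008 CPM, the highest of the old mice, whose median was 48833 CPM. Fga, a fibrinogen chain, was at 20213 CPM in 1189 and at most 9840.2 CPM in the other old mice, against 14273 to 19349 CPM in the mice of high Saa2. The part of this response in the members' levels in 1189 was not tested. Mouse 1187 was the highest for 5 members, C3ar1, C5ar1, Cd55, Cfp and Fcna, and for 19.8% of tested genes.

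Other genes of the pathway were taken from a list of 31, of which 29 were in the table and 21 were tested. In edgeR, 8 were higher in old mice and 2 lower with all libraries, where 16.3% of all genes tested were higher and 14.5% lower. The median log2 fold change of the 21 was 0.50, against -0.0034 over all genes tested. Without the mice of high Saa2, 10 were higher and 1 lower, with a median of 0.76, where 14.6% of all genes were higher and 12.5% lower. Colec11 and Colec10, collectins that start the lectin pathway as Mbl2 does, had the smallest p. Colec11 was at 4.47 to 10.7 CPM (median 6.83) in young mice and 13.3 to 52.5 CPM (median 18.7) in old mice, so the ages did not overlap, and its age effect was 1.57 (SE 0.25, edgeR adjusted p = 0.00029), and 1.64 (edgeR adjusted p = 0.0016) without the mice of high Saa2. Colec10 had 1.12 (SE 0.20, edgeR adjusted p = 0.000735) and 1.29 (edgeR adjusted p = 0.000996) in the same order. Colec11 is also a stellate cell marker, and all 10 stellate markers of the list, Colec11 included, were higher in old mice. Likewise, C1qa, C1qb, C1qc and Vsig4 are also among the 14 macrophage markers, so those 2 sets of counts share genes. C1qa, a chain of C1q made by macrophages, had 1.72 (SE 0.50, edgeR adjusted p = 0.0147) and Itgb2, the shared chain of the leukocyte complement receptors, 1.93 (SE 0.52, edgeR adjusted p = 0.0105). Both were highest in mouse 1187, and without it C1qa was at 0.88 (edgeR adjusted p = 0.0711) and Itgb2 at 1.14 (edgeR adjusted p = 0.0476). In that fit 4 of the 21 genes were higher and 2 lower, where 24.5% of all genes passed in either direction. Without the mice of high Saa2, C1qa had 2.08 (edgeR adjusted p = 0.0265) and Itgb2 2.31 (edgeR adjusted p = 0.0205). The 2 lower genes were C1qbp, a mitochondrial protein that binds C1q, with -0.29 (SE 0.067, edgeR adjusted p = 0.00452), and Susd4, an inhibitor of C3 convertases, with -0.56 (SE 0.16, edgeR adjusted p = 0.0128). Without the mice of high Saa2, C1qbp had -0.34 (edgeR adjusted p = 0.00441) and Susd4, which did not pass there, -0.43 (edgeR adjusted p = 0.0804).

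Acute phase genes outside complement were read the same way, from a list of 27. With all libraries edgeR called 0 of 27 and DESeq2 0, and 1 gene had an unadjusted p under 0.05. The list holds Saa2, by which the 3 young mice were chosen, so its values without them are a description with no test. On the second cull day alone, where no mouse was left out, edgeR called 20 of 27 higher in old mice and 0 lower, where 19.3% of genes passed. On the first day alone, which held the 3 young mice of high Saa2, it called 0 of 27, where 3.67% of genes passed. There 2 of the 27 log2 fold changes were positive, and their median was -0.69. The age by cull day interaction in edgeR passed for 0 of 27. Its unadjusted p was under 0.05 for 20 of 27, where 6.51% of genes had this. Hp, haptoglobin, was at 2013 to 2303 CPM (median 2167) in the other 7 young mice, 8299 to 13213 CPM in the 3 of high Saa2 and 3169 to 10726 CPM (median 5317) in old mice, so all 9 old mice lay between those 2 sets or within the upper one. The age effect was 0.49 with all libraries (edgeR adjusted p = 0.389) and 1.47 without the 3 mice. Lcn2 followed the same pattern, at 0.518 to 1.87 CPM (median 1.06), 207 to 1125 CPM and 4.08 to 133 CPM (median 14.6). Crp, a member and a classical acute phase gene of other species, did not follow this order, since its median in old mice, 446 CPM, lay within the range of the other 7 young mice.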

How the data were processed

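Poly(A) RNA of hepatocytes from 10 young and 9 old mice was measured by stranded paired-end sequencing with reads of 100 bases, per the labels. The authors deposited 1 table of estimated counts per gene, in multiples of 0.5, written by HOMER's analyzeRepeats over exons of RefSeq transcripts on mm10 with no normalisation, per the file headers. STAR and HOMER are named in the submitters' processing notes. Software versions, the handling of reads with several matches and the strand setting are not given in the sources used here, so values of near copies and of overlapping genes are uncertain. The table's lengths, also deposited by the authors, were used for levels per kilobase.

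Counts were rounded (29.2% of cells were not whole) and fitted over the whole table in edgeR 4.0.16 (R 4.3.3) by quasi-likelihood, with TMM scaling, filterByExpr by age (minimum count 10), a cull day term and p-values adjusted by Benjamini-Hochberg over all 12269 genes tested. The design had named estimated counts, and the same test was kept. Standard errors are the log2 fold change divided by the root of the F statistic. The threshold was an adjusted p of 0.05. Alternatives were DESeq2 1.42.0, limma-voom (limma 3.58.1), other scalings and filters, unrounded counts, a model without cull day, each day alone and leaving out each mouse or the young libraries of Saa2 above 1000 CPM. No pair of libraries repeated each other (smallest chi-square per gene within an age 14.5). Totals of 17381439 to 20287628.5 counts set the precision of low genes. The script was tested on simulated counts. Ratios were computed in Python 3.11.15 with scipy 1.17.1.

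The members and lists were chosen with earlier results of these data known. Values are given in full for every member past the threshold and for every member whose call changed without the young libraries of high Saa2, and the others by range. Of other complement genes, up to 6 past the threshold with the smallest p were named, with the copies of members. Promoters came from RefSeq for 24 of 32 members.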

Additional observations from a re-analysis of the deposited data

Results flagged for a closer look

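In each age group of each member, the distance of the most extreme mouse from its nearest neighbour was set against the whole range of the group. Of 64 such groups, 18 (28.1%) held a mouse farther out than Dixon's 95% critical value allows, where chance gives about 1 in 20 and 12.6% of the groups of all genes tested did. Of the 18, 16 were mouse 1186, 1187 or 1189, and members that share a mouse are not independent counts. In old mice, 8 of the 18 were mouse 1189. It stood at 27870.0 CPM for C3, 1907 for Hc, 1644 for C8a, 12.1 for Cfd, 1779 for Cfi, 108 for Masp1, 1144 for C4bp and 763 for Apcs. Mouse 1187 was farthest out for 4 members, at 216 CPM for Cfp, 106 for Fcna, 17.3 for C3ar1 and 12.5 for C5ar1. Among the remaining old mice, 1236 stood at 2167 CPM for Cfb and 1240 at 705 for Mbl2. In young mice the farthest was 1186 each time, one of the 3 mice of high Saa2, at 1134 CPM for Serping1, 825 for Apcs, 3891 for Vtn and 2903 for Clu.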

How the results depend on the processing

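The count of 11 members called was 2 on the first cull day alone and 18 on the second alone, and ran from 5 (without 1187) to 13 when each mouse was left out. Settings added after seeing the data gave 18 (young mice of high Saa2 and 1187 left out), 17 (young mice of high Saa2 and 1189 left out) and 4 (1187 and 1189 left out). The count of higher members, 10, was 1 on the first day and 18 on the second, and 5 to 13 leaving out each mouse. The count of lower members, 1 (C8b), was 0 with library totals alone, a mean of at least 1 CPM, limma-voom, the second day alone or without the young mice of high Saa2. It was 3 with no filter, 4 with DESeq2 (C6, C8b, C9 and Crp) and 0 to 3 leaving out each mouse. The count of 10 other complement genes called was 1 on the first day alone and 6 to 12 leaving out each mouse. C8b changed sign on the second day alone, at a log2 fold change of 0.030 (edgeR adjusted p = 0.908). Why these counts moved was not tested. Cfp has no adjusted p in DESeq2. Cfi and Mbl2 passed under every scaling, filter and tool tried. No paired analysis was possible because the ages share no replicate numbers. Depth limits low members such as C5ar1, C3ar1 and Cfd, with 2 to 25 and 10 to 42 counts in young libraries for the receptors and 1 to 4 for Cfd in the 3 young mice of high Saa2.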

Other observations

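In mouse 1189, C3 was 1.94 times, and Cfi 1.45 times, the next highest mouse.

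Of the 10 hepatocyte markers listed, Alb and Ttr were lower in all 3 mice of high Saa2 than in the other 7 young mice, Alb at 61168 to 62616 CPM against 103017 to 116311 CPM and Ttr at 3766 to 4196 CPM against 6337 to 9316 CPM. The other 8 overlapped between those sets, among them Hnf4a at 624 to 807 CPM against 622 to 711 CPM and Cps1 at 4636 to 5316 CPM against 3032 to 5839.7 CPM.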
